A study of Mus musculus with 22 samples.

Results

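The 4 LT-HSC libraries compared here came from 2 Arid1a knockout (KO) and 2 wild-type (WT) mice, and they were chosen by their labels as long-term hematopoietic stem cells among the 22 libraries of the series. The other 18 libraries were common myeloid (CMP), granulocyte-monocyte (GMP) and megakaryocyte-erythroid (MEP) precursors, with 3 KO and 3 WT samples each. Both LT-HSC groups were C57BL/6 mice with Arid1a f/f alleles, backcrossed for 5 generations, in which poly(I:C) was given at 8 to 14 weeks of age and cells were sorted 4 weeks later. KO mice carried the Mx1-Cre transgene and WT mice, which were sex-matched littermates, did not, so Cre and the loss of Arid1a cannot be told apart in these groups. Mx1-Cre is driven by an interferon-inducible promoter that is active in many cell types besides blood, and poly(I:C) is itself an inducer of interferon. LT-HSCs were sorted from bone marrow as CD34- Flt3- cells of the lineage-negative Sca1+ Kit+ (LSK) fraction. Each library bears its own mouse number in the labels. LT-HSC libraries were made with the SMART-Seq v4 low-input kit and precursor libraries with TruSeq, so levels are not compared between them. With 2 mice against 2, the LT-HSC p-values below rest on few samples, and edgeR moderates the spread of each gene over all genes. An exact permutation test of a single LT-HSC gene could not go below 0.33. Precursor p-values come from 3 KO and 3 WT samples, and those for differences of the KO effect from 10 libraries.

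ARID1A is a subunit of the BAF form of the SWI/SNF complex, which slides and evicts nucleosomes at enhancers and promoters. Its ARID domain binds DNA without preference for a sequence. LT-HSCs sit at the top of the blood lineages and are mostly out of cell cycle. They are held in the marrow niche by adhesion molecules and cytokine receptors, and inflammatory signals, interferon among them, can drive them to divide.

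The floxed allele removes exon 9 of Arid1a, which lies inside the coding sequence on chromosome 4. Arid1a was lower in both KO libraries, at 50.9 and 53.6 CPM (counts scaled to a common library size) against 119 and 111 CPM in the WT libraries. The 2 groups did not overlap, and the difference was -1.14 on the log2 scale (SE 0.27), but it did not pass edgeR's test across all genes (adjusted p = 0.421). Exon 9 makes up 1.78% of the longest transcript, so the gene-level values came almost wholly from exons that the KO allele keeps. They do not measure how complete the excision was. Arid1b, the alternative ARID subunit of the same complex, stood at 261 and 244.5 CPM in the WT and 277 and 204 CPM in the KO libraries, and these overlapped. Among 31 SWI/SNF subunit genes tested, Arid1a was the 1 with an unadjusted p under 0.05. Actb, an actin subunit of the complex and the most abundant member, stood at 526 and 758 CPM in the WT and 1174 and 1007 CPM in the KO libraries (log2 fold change 0.76, edgeR adjusted p = 0.876).

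The LT-HSC libraries held 40804031 to 65930737 estimated counts on genes. WT replicate 1 had 27191 genes with at least 10 counts, against 18504 to 22407 in the other 3 LT-HSC libraries. Its share of counts on retained-intron transcripts was 5.06%, against 3.34% to 3.53% in the others, and its share on long noncoding RNA genes was 2.70%, against 1.19% to 1.38%. Among the 8619 genes with a mean of at least 20 CPM, the median absolute log2 difference was 0.408 between the 2 WT libraries, 0.218 between the 2 KO libraries and 0.271 between the WT and KO means. The WT replicates thus lay farther apart than the group means did, but a mean of 2 libraries varies less than a single library. Kit and Ly6a (Sca1), on which the gate selected, and the LT-HSC markers Procr, Slamf1, Mecom and Hlf were all present. Their summed level, most of it Kit, was 1945 and 1792 CPM in the WT and 1556 and 1811 CPM in the KO libraries. Ly6a, Procr and Hlf were lower and Slamf1 was higher in both KO libraries, while Kit and Mecom overlapped. Of the genes gated against, Cd34 was at 263 and 164 CPM in the WT and 145 and 110 CPM in the KO libraries. Flt3 overlapped between groups. The paper reports reduced surface CD34 on KO CMP and GMP cells. Whether the CD34 gate held the same cells in both genotypes was not tested. Levels of genes of other cell types differed between libraries. The macrophage genes C1qa, C1qb, C1qc, Adgre1 and Cd5l summed to 6.63 and 5.36 CPM in the WT libraries. In the KO libraries they summed to 23 and 22.7 CPM. All but Cd5l were higher in both KO libraries, and Cd5l was at 0.47 and 0.88 CPM in the WT against 0.26 and 0 CPM. Of 32 monocyte and macrophage genes tested, 9 lay lower in both KO libraries (28.1%, against 19.4% of all genes). Another 10 lay higher (31.2%, against 16.9%). The neutrophil genes Ngp, Camp, S100a8, S100a9 and Ly6g summed to 689 CPM in WT replicate 2 and to 71.3 to 128 CPM in the other 3. The immunoglobulin gene Ighm stood at 446 CPM in KO replicate 1 and at 19.9 to 46.8 CPM elsewhere, with the B cell gene Pax5 at or near 0 in that library. The eosinophil granule gene Epx stood at 516 CPM in KO replicate 2 and at 2.14 to 20.8 CPM elsewhere. In bulk samples, fewer cells of a type and less RNA per cell cannot be told apart.

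Of 22733 genes tested, 12 fell in KO LT-HSCs at an FDR under 0.1 (0.0528% of genes) and 6 rose (0.0264%). At an FDR under 0.25 these counts were 18 (0.0792%) and 16 (0.0704%). At an unadjusted p under 0.05 the numbers were 687 lower (3.02%) and 493 higher (2.17%). The 18 genes at the stricter FDR were also called with DESeq2, without a filter on low counts and with median-of-ratios size factors. With a transcript length offset 15 were called, and Amotl2, Plxnb2 and Man1c1 were not. With at least 10 counts required in each library 17 were called, since Cd163l1 was filtered out. Without KO replicate 1, Padi4 (adjusted p = 0.259) and Man1c1 (0.158) were no longer called by edgeR, and without KO replicate 2, Padi4 (0.174) and Csf3r (0.667) were not. These refits leave a single library in a group, which is assumed to vary like the other. No gene changed direction among the 18. The counts themselves moved far more than the list of 18 did. DESeq2 called 161 lower and 87 higher, and leaving out 1 library gave between 33 (without KO replicate 2) and 935 (without WT replicate 2) lower genes and between 17 and 1584 higher genes.

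**Figure D1:**
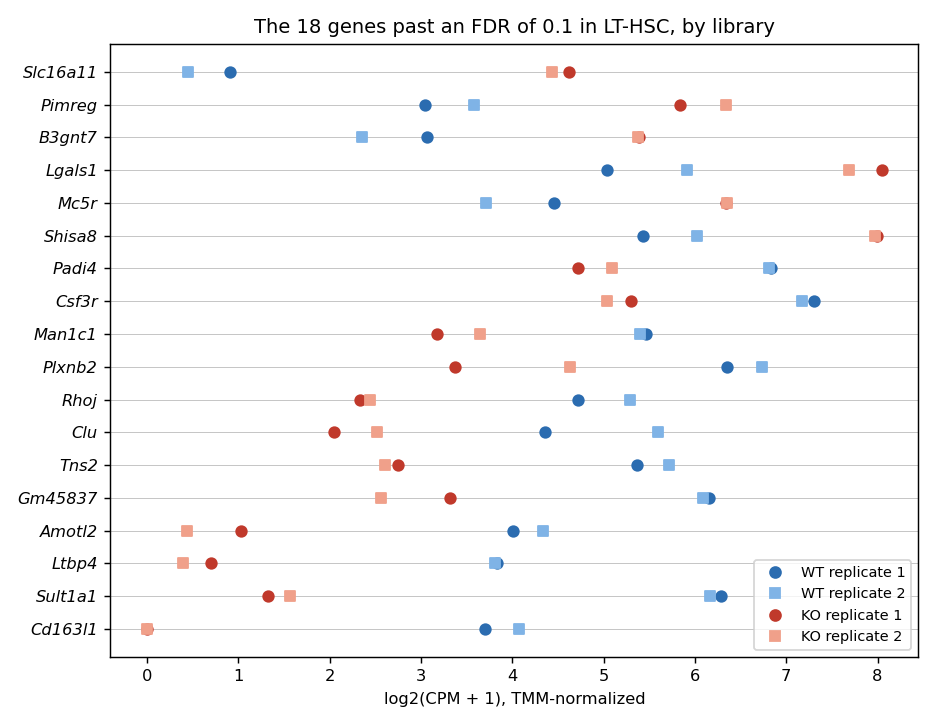
The x axis gives log2(CPM + 1) of the 18 genes past an FDR of 0.1 (y axis, ordered by fitted fold change), with 1 point for each of the 4 LT-HSC libraries, circles for replicate 1 and squares for replicate 2. The 2 KO points (red shades) and the 2 WT points (blue shades) lie on opposite sides of a gap in every gene, and Cd163l1 has both KO points at 0.

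Among the genes that fell, 4 encode enzymes. Sult1a1, a cytosolic sulfotransferase that conjugates phenols, stood at 77.2 and 71.0 CPM in the WT and at 1.5 and 1.95 CPM in the KO libraries. It had the smallest p of all genes (log2 fold change -5.42, SE 0.35, edgeR adjusted p = 0.000117). An exon of Sult1a1 overlaps Sgf29 on the opposite strand, so reads from the shared stretch cannot be told apart by strand. Padi4, a peptidylarginine deiminase that citrullinates histones, was at 113 and 112 CPM in the WT and at 25.4 and 33.1 CPM in the KO libraries (log2 fold change -1.94, SE 0.29, adjusted p = 0.0485). Man1c1, a Golgi mannosidase that trims N-glycans, was at 43.3 and 41.2 CPM in the WT and at 8.03 and 11.5 CPM in the KO libraries (log2 fold change -2.11, SE 0.35, adjusted p = 0.0964). In both of these genes the WT mice were nearly level. The remaining enzyme is Pde2a, a phosphodiesterase that breaks down cyclic nucleotides, whose locus is annotated as overlapping genes. The called identifier, ENSMUSG00000030653, is named Gm45837 in the annotation used here and shares exons with Pde2a (ENSMUSG00000110195) and Arap1. It was at 70.1 and 66.8 CPM in the WT and at 9.0 and 4.88 CPM in the KO libraries (log2 fold change -3.30, SE 0.37, adjusted p = 0.0109). Summed over Gm45837 and Pde2a the levels were 72.2, 70.9, 9.0 and 8.24 CPM, so the drop remained over these 2 models together. Arap1 was not part of the sum. The Pde2a identifier alone was not called (log2 fold change -0.90, edgeR adjusted p = 0.911).

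Another 3 of the genes that fell encode cell surface receptors. Csf3r, the receptor for granulocyte colony-stimulating factor, was at 157 and 143 CPM in the WT and at 38.2 and 31.9 CPM in the KO libraries (log2 fold change -2.09, SE 0.29, adjusted p = 0.0425). Plxnb2, a plexin that binds semaphorins, was at 80.8 and 105 CPM in the WT and at 9.37 and 23.8 CPM in the KO libraries (log2 fold change -2.49, SE 0.41, adjusted p = 0.0964). Both receptors lay well apart in the groups, and the KO mice differed from each other more in Plxnb2. Cd163l1, a scavenger receptor of the cysteine-rich family, stood at 12 and 15.8 CPM in the WT libraries and had no count in either KO library. Against a floor of 3 counts over the KO group it was at least 526-fold lower (adjusted p = 0.00969).

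The other 5 genes that fell act at the cytoskeleton, the matrix or outside the cell. Tns2, a tensin of focal adhesions, was at 40.4 and 51.6 CPM in the WT and at 5.71 and 5.06 CPM in the KO libraries (log2 fold change -3.09, SE 0.36, adjusted p = 0.0141). Rhoj, a small GTPase known from endothelium, was at 25.4 and 38.2 CPM in the WT and at 4.05 and 4.41 CPM in the KO libraries. Amotl2, an angiomotin of cell junctions, fell from 15.0 and 19.3 CPM to 1.04 and 0.35 CPM. The 3 genes lay apart by wide margins. Ltbp4, which holds latent TGF-beta in the matrix, was at 13.3 and 13 CPM in the WT and at 0.62 and 0.31 CPM in the KO libraries. Clu, the secreted chaperone clusterin, was at 19.6 and 47.3 CPM in the WT and at 3.12 and 4.74 CPM in the KO libraries. Fitted log2 fold changes were -2.91 for Rhoj, -4.61 for Amotl2, -4.81 for Ltbp4 and -3.09 for Clu, with edgeR adjusted p-values of 0.0485, 0.0667, 0.0667 and 0.0964. The endothelial markers Cdh5 and Lyve1 were at or near 0 in all 4 libraries, and the 5 endothelial markers summed to 26.9 and 37.7 CPM in the WT and 9.87 and 16.4 CPM in the KO libraries. The part of such cells in the levels of Rhoj and Amotl2 was not tested.

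The 6 genes that rose have no single role. Pimreg, a mitotic regulator, was at 7.24 and 11 CPM in the WT and at 56.1 and 80.2 CPM in the KO libraries (log2 fold change 2.90, SE 0.35, adjusted p = 0.0143). Slc16a11, of the monocarboxylate transporter family, was nearly silent in the WT libraries at 0.88 and 0.36 CPM and stood at 23.5 and 20.7 CPM in the KO libraries (log2 fold change 5.16, SE 0.64, adjusted p = 0.0160). Shisa8, a small membrane protein known from neurons, was at 42.0 and 64.1 CPM in the WT and at 255 and 250 CPM in the KO libraries (log2 fold change 2.25, SE 0.33, adjusted p = 0.0485). The 2 KO mice lay closer to each other in Shisa8 and Slc16a11 than in Pimreg. B3gnt7, a Golgi N-acetylglucosaminyltransferase, rose from 7.36 and 4.12 CPM to 40.9 and 40.5 CPM (log2 fold change 2.83, SE 0.40, adjusted p = 0.0485), and its exons overlap Gm28626 on the opposite strand. Mc5r, a melanocortin receptor, rose from 20.9 and 12.1 CPM to 79.8 and 80.4 CPM (log2 fold change 2.28, SE 0.33, adjusted p = 0.0485). Lgals1, a galectin that binds cell surface glycans, rose from 31.8 and 59.5 CPM to 263 and 205 CPM (log2 fold change 2.36, SE 0.37, adjusted p = 0.0667).

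At an FDR between 0.1 and 0.25 a further 6 genes were lower and 10 were higher. The lower genes were Mlph, Mmp2, Emid1, Cracr2b, Klk8 and AI427809. Mmp2, a gelatinase of the matrix, stood at 22 and 14.4 CPM in the WT and at 2.84 and 2.62 CPM in the KO libraries, and Emid1, a secreted glycoprotein, at 34.7 and 33.0 against 10.1 and 4.96 CPM. AI427809 had 3.38 and 4.66 CPM in the WT libraries and under 0.05 CPM in both KO libraries. The higher genes were S100a6, Tnfaip8l2, Socs2, Rgcc, B3gnt5, Pim2, Tedc1, Ffar2, Hbb-bt and 4930515G01Rik. S100a6, a calcium-binding protein, stood at 33.5 and 55.0 CPM in the WT and at 136 and 172 CPM in the KO libraries (log2 fold change 1.80, SE 0.33, edgeR adjusted p = 0.158). The targets of cytokine signalling Socs2 and Pim2 belong here too. Socs2, an inhibitor of JAK/STAT receptors, was at 39.4 and 49.5 CPM in the WT and at 103 and 164 CPM in the KO libraries (adjusted p = 0.245). Pim2, a survival kinase, was at 45.9 and 25.4 CPM in the WT and at 118 and 159 CPM in the KO libraries (adjusted p = 0.143). Tedc1, of the tubulin epsilon and delta complex, was at 24.2 and 32.6 against 80.5 and 94.7 CPM (adjusted p = 0.150). These 16 genes had non-overlapping groups but did not pass the stricter FDR.

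Counted by order alone, both KO libraries lay below both WT libraries in 4402 genes (19.4%) and above them in 3841 (16.9%). Among the 8619 genes with a mean of at least 20 CPM the split was uneven, with 717 genes lower (8.32%) and 2710 higher (31.4%). The median log2 fold change was -0.16 over all genes tested and 0.19 over these abundant genes, and without WT replicate 1 the median over all genes was 0.07. Where a gene list's libraries are counted in order below, the shares to read it against are 19.4% lower and 16.9% higher for all genes and 8.32% and 31.4% for genes above 20 CPM. A gap of at least 1 on the log2 scale, between the nearest libraries of the 2 groups with 1 CPM added, held for 167 lower genes (0.735%) and 70 higher genes (0.308%). Among genes above 20 CPM, the 10 with the widest gap downward were Sult1a1, Gm45837, Tns2, Csf3r, Man1c1, Padi4, Plxnb2, Emid1, Retnlg and Rassf4. Of these Retnlg, a granulocyte-secreted resistin family protein, stood at 19.9 and 60.7 CPM in the WT and at 7.48 and 1.70 CPM in the KO libraries. The 10 with the widest gap upward were B3gnt7, Pimreg, Shisa8, Mc5r, Lgals1, Hbb-bt, Rgcc, Pim2, Tnfaip8l2 and Kcna3. Kcna3, a potassium channel of lymphocytes, stood at 12.1 and 7.68 CPM in the WT and at 37.5 and 31.6 CPM in the KO libraries.

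The plot of list levels shows that in most of the 29 gene lists the single WT replicates differed by as much as the genotype means did. Interferon response genes were an exception. Their median level, relative to the WT mean, was -0.06 and 0.06 in the WT and 0.66 and 0.40 in the KO libraries. The mitosis list was at -0.61 and 0.61 in the WT and 0.65 and 0.90 in the KO libraries, so its WT replicates were as far apart as the genotypes.

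**Figure D2:**
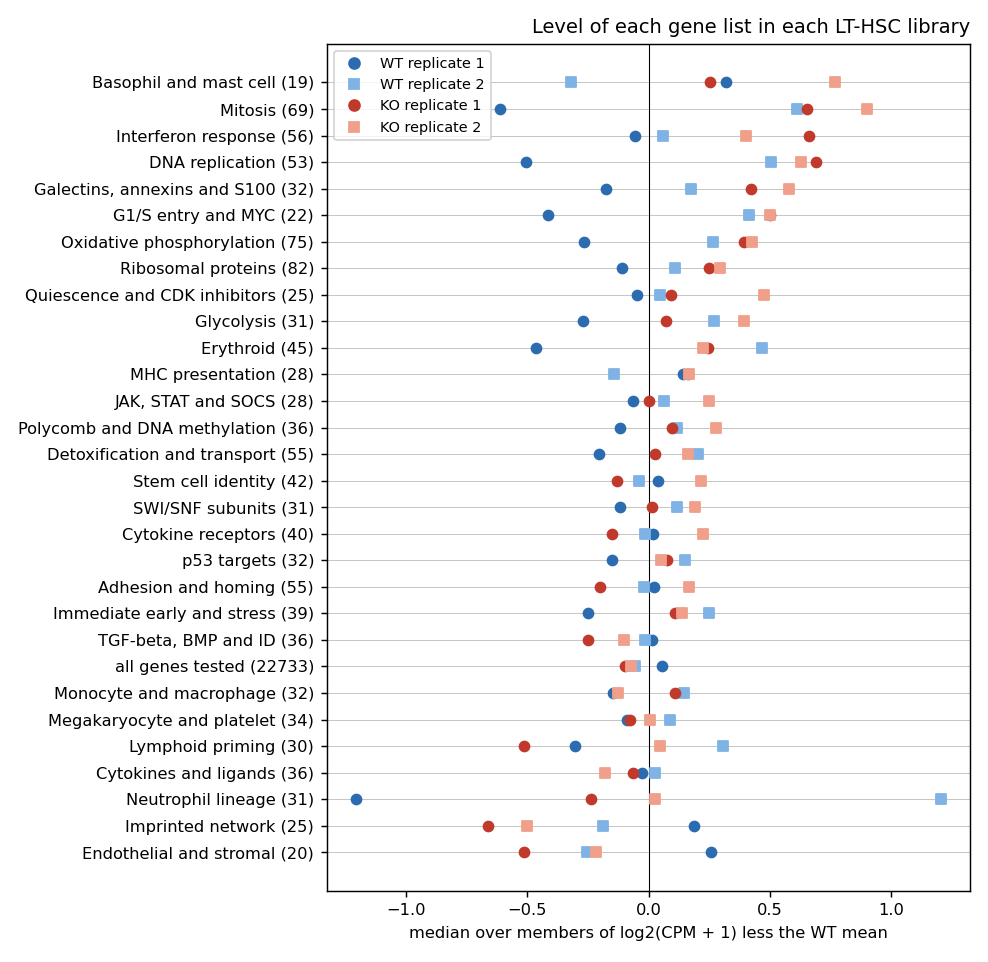
Each row is 1 of 29 gene lists or all genes tested (number of genes in parentheses), and the x axis is the median over its members of log2(CPM + 1) less the WT mean, with 1 point per LT-HSC library. In the interferon list the 2 WT points lie at -0.06 and 0.06 and the KO points at 0.66 and 0.40, while in the mitosis, DNA replication and neutrophil lists the 2 WT points lie far apart.

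Interferon response genes are switched on by the ISGF3 complex of STAT and IRF9 proteins and encode antiviral effectors. Of 56 members tested, 37 had both KO libraries above both WT libraries and 1 had both below. Among the 51 members above 20 CPM these counts were 35 (68.6%) and 1 (1.96%), against 31.4% and 8.32% of all such genes. An unadjusted p under 0.05 was reached by 14 members (25%, against 2.17% of all genes), all higher, and none passed an FDR of 0.1. The median log2 fold change was 0.54, and it lay between 0.42 and 0.69 when any 1 of the 4 libraries was left out. Regulators and effectors were both among them. Irf7, the transcription factor that amplifies interferon production, was at 56.3 and 78.8 CPM in the WT and at 205 and 133 CPM in the KO libraries (log2 fold change 1.32, SE 0.33, edgeR adjusted p = 0.464). Ifit1, which binds viral RNA, was at 13.8 and 19.2 CPM in the WT and at 52.0 and 40.0 CPM in the KO libraries (log2 fold change 1.48, SE 0.33, adjusted p = 0.354). Ifitm1, a membrane protein that restricts viral entry, was at 578 and 653 CPM in the WT and at 1289 and 1657 CPM in the KO libraries (log2 fold change 1.26, SE 0.41, adjusted p = 0.756). The groups lay apart in all 3, and no single gene carried enough replicate support for a call. Isg15, a ubiquitin-like modifier, stood at 16 and 18.8 against 51.8 and 30.5 CPM. Rtp4 stood at 40.0 and 42.9 against 105 and 68.7 CPM, and Oas1a, a sensor of double-stranded RNA chosen after its values were seen, at 51.7 and 47.6 against 114 and 84.1 CPM. Ly6e, the most abundant member, stood at 1077 and 1348 against 1415 and 1406 CPM (log2 fold change 0.22). The summed macrophage markers were higher in both KO libraries too, at 23 and 22.7 against 6.63 and 5.36 CPM, and their part in the interferon and galectin lists was not tested.

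**Figure D3:**
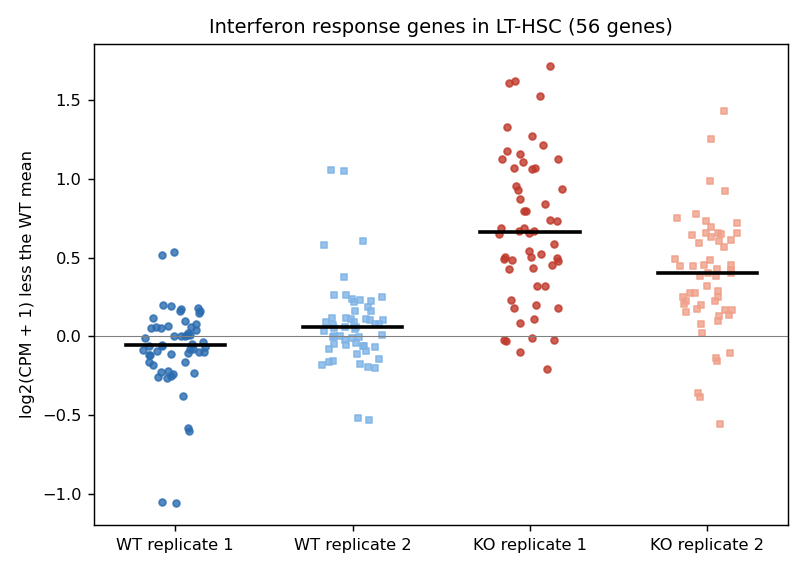
The y axis gives log2(CPM + 1) less the WT mean for each of the 56 interferon response genes, in each of the 4 LT-HSC libraries (x axis), with the median as a black bar. The WT medians lie at -0.06 and 0.06 and the KO medians at 0.66 and 0.40, and some genes in each KO library lie at or below 0.

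The CMP, GMP and MEP libraries came from other mice, so they measure the same genes independently of the LT-HSC libraries. The 3 precursor sets share mice with each other. Over all genes, 12.8% fell and 10.6% rose in CMP at an FDR under 0.1. These shares were 16.3% and 17.5% for GMP and 15.4% and 14% for MEP. Of the 56 interferon genes, 39 rose and 3 fell in CMP, 18 rose and 6 fell in GMP, and 36 rose and 2 fell in MEP, where 54 and 55 of them were tested in GMP and MEP. Of the 37 members that lay higher in both KO LT-HSC libraries, 23 rose in CMP, 10 in GMP and 25 in MEP. Of the other 19 members, 16 rose in CMP, 8 in GMP and 11 in MEP. Ifitm1 rose by 2.85 in CMP, 2.06 in GMP and 3.52 in MEP on the log2 scale, and Irf7 by 1.76 in CMP and 1.15 in MEP, where its value in GMP was 0.48 (edgeR adjusted p = 0.26).

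The promoters of this list are shown for 2 genes because their letters hold the interferon-stimulated response element (ISRE). Promoter sequences were taken from RefSeq (GRCm38.p6), from 250 bases before to 50 bases after the start nearest to the most abundant LT-HSC transcript of each gene. The ISRE was searched on both strands as GAAANNGAAA, a motif chosen after the data were seen. It was present in 20 of 42 interferon promoters (47.6%) and in 3.34% of the 13994 promoters of all genes tested. In Ifit1 (chr19:34640639-34640938, plus strand) the copies start at positions -104 and -85 from the transcription start, and in Isg15 (chr4:156200769-156201068, minus strand) 3 overlapping copies start at -78, -72 and -66. Capitals mark the ISRE copies.
Ifit1 promoter: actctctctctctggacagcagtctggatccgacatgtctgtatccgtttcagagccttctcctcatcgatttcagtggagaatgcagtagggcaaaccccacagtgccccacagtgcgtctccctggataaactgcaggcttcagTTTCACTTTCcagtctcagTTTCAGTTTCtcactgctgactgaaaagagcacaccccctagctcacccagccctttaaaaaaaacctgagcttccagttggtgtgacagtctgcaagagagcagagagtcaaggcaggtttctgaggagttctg
Isg15 promoter: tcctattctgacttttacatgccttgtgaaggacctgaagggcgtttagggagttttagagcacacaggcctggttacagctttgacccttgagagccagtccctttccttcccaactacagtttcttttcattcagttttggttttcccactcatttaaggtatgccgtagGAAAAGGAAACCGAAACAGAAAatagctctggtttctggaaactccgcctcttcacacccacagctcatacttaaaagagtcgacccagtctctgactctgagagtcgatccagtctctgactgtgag

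Genes for galectins, annexins, S100 proteins and the actin skeleton also had list levels in both KO libraries above those in both WT libraries. The list levels were -0.18 and 0.18 in the WT and 0.42 and 0.58 in the KO libraries. Of 27 members above 20 CPM, 19 lay higher in both KO libraries (70.4%, against 31.4% of all such genes) and 1 lower (3.7%, against 8.32%). The median log2 fold change over all 32 members was 0.52, and 0.35 without WT replicate 1. Lgals1 and S100a6, described above, lead the list. Like the others, the list was chosen with earlier results of these data known, so its shares are a description and no test. S100a4, another calcium-binding protein, was at 4.91 and 9.60 CPM in the WT and at 22.7 and 28.2 CPM in the KO libraries (log2 fold change 1.81, edgeR adjusted p = 0.495). Vim, the intermediate filament protein vimentin, was level in the WT mice at 122 and 123 CPM and stood at 252 and 236 CPM in the KO mice (log2 fold change 0.99, adjusted p = 0.68). The abundant actin regulators Cfl1 and Pfn1 were at 903 and 693 CPM in WT replicate 1, at 1540 and 1199 CPM in WT replicate 2, and at 1482 to 1934 CPM in the KO libraries. These 2 genes followed the gap between the WT replicates. In the precursors the list differed, with 31 members tested in each. CMP had 7 higher (against 10.6% of all genes) and 9 lower (against 12.8%). GMP had 18 higher (against 17.5%) and 2 lower (against 16.3%). MEP had 6 higher (against 14%) and 10 lower (against 15.4%). Lgals1 rose in all 3, by 0.95 in CMP, 0.95 in GMP and 1.48 in MEP.

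Ribosomal protein and oxidative phosphorylation genes also lay mostly higher. Of 79 ribosomal genes above 20 CPM, 54 lay higher in both KO libraries (68.4%, against 31.4% of all such genes) and 0 lower (against 8.32%), with a median log2 fold change of 0.27. Of 74 oxidative phosphorylation genes above 20 CPM, 45 lay higher (60.8%) and 0 lower, with a median of 0.39. The median over all abundant genes was 0.19. These rises turned in part on WT replicate 1. Over all members tested, the ribosomal median was 0.185 without WT replicate 1 and 0.342 without WT replicate 2. For oxidative phosphorylation these medians were 0.178 and 0.670. The oxidative phosphorylation list levels were -0.27 and 0.27 in the WT and 0.39 and 0.42 in the KO libraries. At an unadjusted p under 0.05 there were 2 ribosomal (2.44%) and 3 oxidative phosphorylation genes (4%), all higher, against 2.17% of all genes. In CMP and MEP the ribosomal list went the other way, with 55 and 59 of 80 members lower. The shares of all genes lower there were 12.8% and 15.4%.

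**Figure D4:**
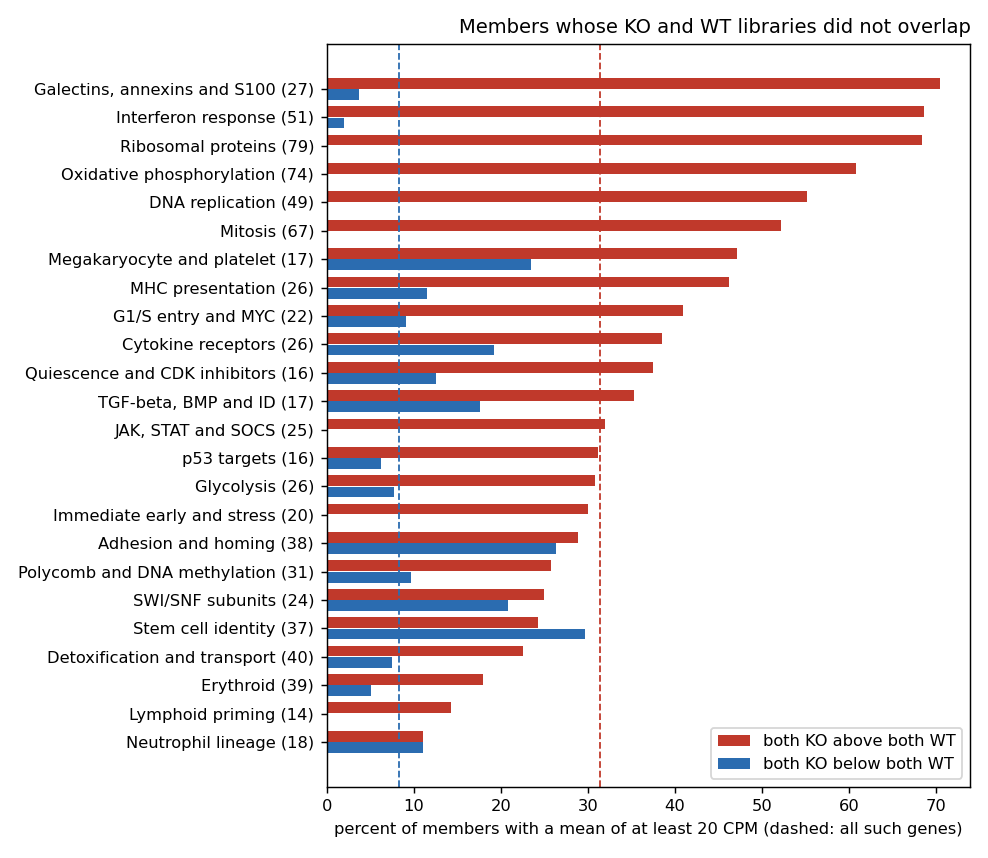
Bars give the percent of a list's members with a mean of at least 20 CPM (number in parentheses) whose 2 KO libraries both lay above (red) or both below (blue) the 2 WT libraries, for lists with at least 10 such members. The dashed lines mark the same percent over all 8619 genes, 31.4% higher and 8.32% lower, and the galectin, interferon and ribosomal lists reach 68.4% to 70.4% higher. The lists were chosen with earlier results of these data known.

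Cell cycle genes tended to be higher in the KO libraries, but by an amount that turned on WT replicate 1. Of 69 mitosis genes, 36 lay higher in both KO libraries (52.2%, against 16.9% of all genes) and 0 lower. Above 20 CPM these were 35 of 67 members, against 31.4% of all such genes. An unadjusted p under 0.05 was reached by 14 members (20.3%, against 2.17% of all genes), all higher. The median log2 fold change was 0.65, with 0.17 without WT replicate 1 and 1.37 without WT replicate 2. Ckap2, a spindle protein, was at 14.7 and 19.9 CPM in the WT and at 34.4 and 46.5 CPM in the KO libraries (log2 fold change 1.23, SE 0.34, edgeR adjusted p = 0.597). Ndc80, of the outer kinetochore, was at 10.5 and 21.0 CPM in the WT and at 34.9 and 41.7 CPM in the KO libraries (log2 fold change 1.28, SE 0.39, adjusted p = 0.68). Foxm1, a transcription factor of mitotic genes, was at 19 and 39.5 against 55.5 and 75.2 CPM, and the tubulin regulator Stmn1 at 456 and 729 against 1237 and 1255 CPM. In each of these, WT replicate 2 lay between WT replicate 1 and the KO libraries. Bub3, a checkpoint protein, was at 129 and 222 CPM in the WT and 238 and 242 CPM in the KO libraries.

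DNA replication genes behaved in the same way. Of 53 members, 31 lay higher in both KO libraries (58.5%, against 16.9% of all genes) and 0 lower (against 19.4%). Above 20 CPM 55.1% lay higher, against 31.4%. The median log2 fold change was 0.54, and it was 0.19 without WT replicate 1 and 1.17 without WT replicate 2. Tk1, thymidine kinase, was at 36.3 and 90.7 CPM in the WT and at 147 and 149 CPM in the KO libraries (log2 fold change 1.22, adjusted p = 0.746). The primase subunit Prim1 was at 33.8 and 69.0 against 103 and 92.6 CPM. Pola2, of DNA polymerase alpha, was at 76.6 and 142 CPM in the WT and at 178 and 211 CPM in the KO libraries. The helicase subunits Mcm6 and Mcm7 were at 312 and 258 CPM in WT replicate 1, at 705 and 522 CPM in WT replicate 2, and at 565 to 800 CPM in the KO libraries. In the precursors all 69 mitosis genes were tested. CMP had 2 members higher (against 10.6% of all genes) and 5 lower (against 12.8%). GMP had 39 higher (against 17.5%) and 5 lower (against 16.3%). MEP had 36 higher (against 14%) and 2 lower (against 15.4%). The promoters of mitotic genes carry a cell cycle homology region (CHR) near CCAAT boxes, to which the DREAM and MuvB complexes and NF-Y bind. TTTGAA, searched on both strands, was present in 39 of 55 mitosis promoters (70.9%) against 13.6% of all, and CCAAT in 40 of 55 (72.7%) against 38.4%. The promoters of Ckap2 (chr8:22185770-22186069, minus strand) and Ndc80 (chr17:71526808-71527107, minus strand) are shown as members with a CHR, which is in capitals with CCAAT. In Ckap2 the CHR starts at -101 and the CCAAT, on the other strand, at -20, and in Ndc80 the CHR starts at 29 and CCAAT is not in the window.
Ckap2 promoter: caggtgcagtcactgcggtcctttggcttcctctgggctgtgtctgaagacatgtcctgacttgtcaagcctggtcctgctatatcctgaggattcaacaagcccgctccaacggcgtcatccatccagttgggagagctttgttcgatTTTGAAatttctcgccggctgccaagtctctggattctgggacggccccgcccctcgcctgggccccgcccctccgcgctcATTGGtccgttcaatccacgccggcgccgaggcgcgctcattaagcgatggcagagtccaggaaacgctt
Ndc80 promoter: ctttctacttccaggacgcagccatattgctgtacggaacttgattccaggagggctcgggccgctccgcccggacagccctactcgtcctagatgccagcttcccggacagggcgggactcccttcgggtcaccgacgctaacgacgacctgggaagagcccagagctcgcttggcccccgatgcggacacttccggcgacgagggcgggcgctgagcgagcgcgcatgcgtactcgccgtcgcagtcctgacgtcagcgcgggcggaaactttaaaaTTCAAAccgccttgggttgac

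Of 25 quiescence genes and CDK inhibitors, 4 lay lower (16%, against 19.4% of all genes) and 10 higher (40%, against 16.9%) in both KO libraries. Cdkn1a, the p53 target p21, was low in all libraries, at 2.98 and 5.14 CPM in the WT and 14.5 and 16.1 CPM in the KO libraries (log2 fold change 1.91, SE 0.56, edgeR adjusted p = 0.644). Cdkn1c, the imprinted inhibitor p57 that marks dormant stem cells, went the other way, from 39.0 and 38.9 CPM to 15.2 and 21.5 CPM (log2 fold change -1.08, SE 0.33, adjusted p = 0.68). Cdkn2d, an inhibitor of CDK4 and CDK6, was at 54.9 and 51.4 against 82.4 and 94.6 CPM, and the pocket protein Rbl1 at 38.7 and 55.7 against 77.7 and 81.5 CPM. Cdkn1a also rose in CMP (1.32), GMP (0.82) and MEP (3.13), and Cdkn1c fell in CMP (-1.52) and GMP (-1.42). The abundant members overlapped between groups. Trp53 was at 256 and 417 CPM in the WT and at 348 and 454 CPM in the KO libraries, and Rbl2 at 145 and 145 against 99.5 and 191 CPM. Of 32 p53 targets, 6 had an unadjusted p under 0.05, all higher (18.8%, against 2.17% of all genes), with a list median of -0.0018. Sesn1, a stress-induced inhibitor of mTORC1, was at 148 and 180 against 262 and 414 CPM, Phlda3, an AKT repressor, at 3.49 and 4.32 against 12.9 and 15.7 CPM, and the spindle protein Psrc1 at 8.50 and 13.6 against 23.9 and 25.5 CPM.

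Stem cell identity genes split in both directions. Of 42 members, 14 lay lower in both KO libraries and 10 higher. Above 20 CPM the share lower was 29.7%, against 8.32% of all such genes, and the share higher was 24.3%, against 31.4%. An unadjusted p under 0.05 was reached by 6 lower members (14.3%, against 3.02% of all genes) and 3 higher ones (7.14%, against 2.17%). Fgd5, a guanine exchange factor used to mark HSCs, was at 77.5 and 92.1 CPM in the WT and at 29.3 and 47.8 CPM in the KO libraries (log2 fold change -1.14, SE 0.31, edgeR adjusted p = 0.596). Prdm16, a zinc finger regulator of stem cell maintenance, was at 41.9 and 45.9 against 22.3 and 19.4 CPM (log2 fold change -1.07, SE 0.31, adjusted p = 0.619). Procr, the endothelial protein C receptor EPCR, was at 112 and 102 against 52.7 and 61.5 CPM (log2 fold change -0.90, SE 0.28, adjusted p = 0.68). All 3 mark LT-HSCs and lay lower in both KO libraries. Slamf1, which encodes the stem cell marker CD150, lay higher, at 26.3 and 33.5 CPM in the WT and 70.6 and 68.8 CPM in the KO libraries (log2 fold change 1.22, SE 0.28, adjusted p = 0.377). The abundant Lmo2, a bridging factor of the TAL1 complex, was at 998 and 1160 against 1259 and 1312 CPM. In CMP and GMP, where such genes are low, Fgd5 fell by 4.43 and 4.32, Prdm16 fell by 1.38 and 1.20 and Procr fell by 1.58 and 1.54 on the log2 scale. Slamf1 rose by 1.65 in CMP, 1.39 in GMP and 2.34 in MEP.

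Of 40 cytokine receptor genes tested, 10 lay lower (25%, against 19.4% of all genes) and 11 higher (27.5%, against 16.9%) in both KO libraries. Csf3r passed the test, as given above, and its promoter is shown because it holds the purine-rich ETS motif GAGGAA (either strand, present in 27.2% of all promoters and in 3 of 10 promoters of the genes that fell). It lies at chr4:126024409-126024708 on the plus strand, its transcription start lies 109 bases from that of the most abundant LT-HSC transcript, and the motif, in capitals, starts at -86.
Csf3r promoter: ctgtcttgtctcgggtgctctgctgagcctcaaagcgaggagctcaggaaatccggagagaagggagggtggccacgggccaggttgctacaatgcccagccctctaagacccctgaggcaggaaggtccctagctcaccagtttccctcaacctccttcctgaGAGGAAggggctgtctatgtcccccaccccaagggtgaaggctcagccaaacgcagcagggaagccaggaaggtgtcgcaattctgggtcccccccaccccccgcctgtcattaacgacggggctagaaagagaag

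Il6ra, the ligand-binding chain of the interleukin-6 receptor, was at 10.7 and 7.84 CPM in the WT and at 2.85 and 1.56 CPM in the KO libraries (log2 fold change -2.07, SE 0.71, edgeR adjusted p = 0.813). Il4ra, of the interleukin-4 receptor, was at 102 and 96.4 against 180 and 161 CPM, and Tnfrsf18, a TNF receptor of lymphocytes, at 35.0 and 34.5 against 51.1 and 64.3 CPM. The receptor for stem cell factor, on which LT-HSCs depend, overlapped between groups. Kit was at 1069 and 994 CPM in the WT and at 880 and 1118 CPM in the KO libraries. Among 36 cytokines and ligands, Osm (oncostatin M) was at 7.36 and 18.2 against 2.73 and 3.16 CPM and Csf1, the macrophage growth factor, at 22.7 and 15.2 against 7.74 and 10.3 CPM. Higher in both KO libraries were Il12a, at 25.5 and 21.5 against 50.8 and 61.5 CPM, and Tgfb1, at 76.7 and 101 against 146 and 142 CPM. Osm and Csf1 fell in all 3 precursors, by 2.30, 0.71 and 5.24 for Osm and by 2.63, 3.41 and 1.14 for Csf1 on the log2 scale. The abundant ligands Mif, at 298 and 547 against 612 and 622 CPM, and Angpt1, at 407 and 345 against 361 and 493 CPM, overlapped between groups or followed the WT gap. Of 28 JAK, STAT and SOCS genes, 3 had an unadjusted p under 0.05, all higher (10.7%, against 2.17% of all genes). These were Socs2, Pim2 and the survival gene Bcl2l1, the last at 55.5 and 58.5 against 92.1 and 100.3 CPM. The kinase Jak1, at 414 and 467 against 369 and 513 CPM, and the phosphatase Ptpn6, at 415 and 490 against 468 and 579 CPM, overlapped.

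Adhesion and homing genes lay on both sides. Of 55 members, 17 lay lower (30.9%, against 19.4% of all genes) and 14 higher (25.5%, against 16.9%) in both KO libraries. Above 20 CPM the shares were 26.3% lower, against 8.32% of all such genes, and 28.9% higher, against 31.4%. Itgb3, the beta chain of the vitronectin receptor, was at 40.5 and 51.6 CPM in the WT and at 17.4 and 13.5 CPM in the KO libraries (log2 fold change -1.58, SE 0.33, edgeR adjusted p = 0.284). Itgb7, an integrin of gut homing, was at 63.4 and 98.1 against 164 and 177 CPM. Cd48, a SLAM receptor that is used to exclude progenitors from LT-HSCs in other gates, was at 7.56 and 18.4 CPM in the WT and at 51.5 and 24.4 CPM in the KO libraries (log2 fold change 1.55, adjusted p = 0.712). The gate used here did not select on CD48. The abundant Adgrg1 (GPR56), at 3341 and 2956 against 3101 and 4091 CPM, and Fermt3 (kindlin), at 623 and 860 against 800 and 1035 CPM, overlapped between groups.

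Megakaryocyte and platelet genes also lay on both sides, with 12 of 34 lower (35.3%, against 19.4% of all genes) and 11 higher (32.4%, against 16.9%). Gp9, of the von Willebrand factor receptor, was at 38.7 and 47.3 CPM in the WT and at 101 and 99.3 CPM in the KO libraries (log2 fold change 1.22, SE 0.28, edgeR adjusted p = 0.36). Thbs1, thrombospondin, was at 22.4 and 28.6 against 4.05 and 9.02 CPM (log2 fold change -1.96, adjusted p = 0.462), and Clu, which fell, and Itgb3 belong to this list too. The transcription factor Nfe2 was at 499 and 579 against 741 and 823 CPM. Of 45 erythroid genes, 3 lay lower (6.67%, against 19.4% of all genes) and 10 higher (22.2%, against 16.9%). Above 20 CPM 17.9% lay higher, against 31.4% of all such genes. The globins Hbb-bt, at 97.5 and 72.6 against 293 and 288 CPM, and Hba-a1, at 228 and 129 against 325 and 318 CPM, were higher in both KO libraries, as was Alas2, the first enzyme of heme synthesis in red cells, at 10.5 and 4.84 against 18.3 and 26.6 CPM. Globin genes are near-identical copies, so the split of reads among them is uncertain. Car1, a carbonic anhydrase of red cells, was at 628 and 1599 against 463 and 450 CPM, while Car2 overlapped at 1462 and 2706 against 1782 and 2014 CPM. In CMP, 36 of 45 erythroid genes rose and 0 fell, against 10.6% and 12.8% of all genes.

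The neutrophil list mostly showed 1 WT library. Its levels were -1.20 and 1.20 in the WT and -0.24 and 0.02 in the KO libraries. S100a9 was at 38.7 and 216 CPM in the WT and at 30.3 and 29.0 CPM in the KO libraries, and Cd177 at 5.93 and 37.4 against 4.56 and 5.58 CPM, so both turned on the WT library with summed neutrophil markers of 689 CPM. Lyz2, at 439 and 728 against 446 and 437 CPM, had the same shape. Nkg7, a granule protein, was at 46.0 and 45.7 against 94.3 and 68.9 CPM, and the chaperone Calr, at 441 and 675 against 682 and 817 CPM, lay higher. Of 19 basophil, mast cell and eosinophil genes tested, 10 lay higher in both KO libraries (52.6%, against 16.9% of all genes). Only 1 lay lower (5.26%, against 19.4%). The eosinophil genes Prg2 and Prg3 were far higher in KO replicate 2 than in KO replicate 1. Prg2 was at 64.3 and 16.3 CPM in the WT and at 97.3 and 1652 CPM in the KO libraries, and Prg3 at 2.51 and 1.22 against 3.68 and 77.9 CPM. Without KO replicate 2 the median of this list was 0.30, against 0.68 with it. The mast cell protease Cpa3 was at 2.79 and 2.72 against 9.68 and 16.5 CPM, and the proteoglycan core Srgn at 370 and 339 against 549 and 584 CPM. How far other cells added to these values was not tested.

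Of 28 genes of MHC presentation, 3 had an unadjusted p under 0.05 (10.7%), all of class II and all lower. Over all genes 3.02% were lower at that level. The invariant chain Cd74 was at 668 and 359 CPM in the WT and at 260 and 92.0 CPM in the KO libraries (log2 fold change -1.55, SE 0.49, edgeR adjusted p = 0.744). H2-Eb1 was at 186 and 76.6 against 66.2 and 44.8 CPM and H2-Aa at 221 and 98.8 against 93.2 and 17.6 CPM. In these 3 genes the replicates of each genotype differed about as much as the genotypes did. The class I genes H2-D1, at 3311 and 3370 against 3857 and 3995 CPM, and H2-K1, at 2590 and 2494 against 2717 and 2870 CPM, differed by 0.23 and 0.14 on the log2 scale. Cd74 fell by 1.76 in CMP and 2.65 in GMP on the log2 scale, H2-Eb1 fell by 2.58 and 2.66, and H2-Aa fell by 3.34 and 2.82.

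Among 36 Polycomb and DNA methylation genes, 4 had an unadjusted p under 0.05, all higher (11.1%, against 2.17% of all genes). Dnmt3b, a de novo DNA methyltransferase, was at 66.8 and 102 CPM in the WT and at 177 and 209 CPM in the KO libraries (log2 fold change 1.19, SE 0.32, edgeR adjusted p = 0.588). The Polycomb genes Pcgf5, at 39.1 and 49.0 against 70.6 and 79.4 CPM, Phf19, at 6.4 and 8.0 against 15.1 and 16.9 CPM, and Phc1, at 37.7 and 43.8 against 66.2 and 59.7 CPM, lay higher as well. The maintenance genes Dnmt1, at 238 and 404 against 501 and 374 CPM, and Uhrf1, at 124 and 303 against 323 and 329 CPM, followed the gap between WT replicates. Pcgf5 rose in all 3 precursors, by 0.55 in CMP, 0.60 in GMP and 0.68 in MEP.

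Of 25 imprinted network genes, 9 lay lower in both KO libraries (36%, against 19.4% of all genes) and 2 higher (8%, against 16.9%), with a median log2 fold change of -0.84, which was -0.11 without WT replicate 1. Meg3, a maternally expressed long noncoding RNA of stem cells, was at 7.99 and 6.24 CPM in the WT and at 0.65 and 0.72 CPM in the KO libraries (log2 fold change -3.37, SE 0.86, edgeR adjusted p = 0.495). Phlda2, a growth-restraining gene next to Cdkn1c on chromosome 7, was at 9.91 and 9.28 against 1.52 and 2.32 CPM (log2 fold change -2.32, SE 0.70, adjusted p = 0.68). Kcnq1ot1, the antisense RNA of that domain, was at 488 and 146 against 180 and 85.3 CPM, which overlapped, and the strand of its reads was not recorded. Gnas was at 512 and 803 against 710 and 899 CPM. Meg3 went the other way in CMP, where it rose by 5.03. Among 36 TGF-beta, BMP and ID genes Ltbp4 fell, as given above. Ltbp3, a related latent TGF-beta binding protein, was at 148 and 101 against 52.4 and 82.7 CPM, Nrros, which anchors latent TGF-beta on leukocytes, was at 263 and 281 against 474 and 466 CPM, and the co-receptor Eng overlapped at 175 and 197 against 157 and 212 CPM.

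Detoxification and transport genes, 55 in all, were led by Sult1a1. Ephx2, an epoxide hydrolase, was at 4.75 and 13.2 CPM in the WT and at 0.99 and 0.84 CPM in the KO libraries (log2 fold change -3.29, SE 0.84, edgeR adjusted p = 0.495). The glutathione transferases Mgst1, at 15.7 and 12.3 against 27.6 and 33.6 CPM, and Mgst3, at 21.4 and 37.1 against 80.9 and 46.0 CPM, were higher. So was the peroxidase Gpx1, at 1030 and 1089 against 1938 and 1770 CPM (log2 fold change 0.81, adjusted p = 0.876), and Aldh2, an aldehyde dehydrogenase that protects HSCs, was at 580 and 723 against 740 and 993 CPM. Ephx2 fell in CMP (-1.91), GMP (-3.36) and MEP (-3.14). The lists of G1/S, glycolysis, lymphoid, monocyte, immediate early and endothelial genes had 22, 31, 30, 32, 39 and 20 members tested. At an unadjusted p under 0.05, 3, 2, 3, 5, 2 and 0 of them were higher (0% to 15.6%, against 2.17% of all genes). Lower members numbered 0, 0, 1, 3, 0 and 1 (0% to 9.38%, against 3.02%).

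Of the 18 genes called in LT-HSCs, 17 were measured in CMP and GMP and 16 in MEP. In CMP 13 changed in the same direction at an FDR under 0.1 and 1 in the opposite one. Of all genes tested in that population, 12.8% fell and 10.6% rose. GMP had 9 and 2, against 16.3% of all genes lower and 17.5% higher. MEP had 9 and 1, against 15.4% lower and 14% higher. Padi4, Plxnb2, Man1c1, Lgals1 and Shisa8 changed in the same direction in all 3 precursors. Plxnb2 fell by 3.42 in CMP, 3.81 in GMP and 3.23 in MEP on the log2 scale, and Shisa8 rose by 3.14, 3.53 and 2.23. Others behaved otherwise. Csf3r stood at -0.25 in CMP (adjusted p = 0.15), rose by 0.81 in GMP and stood at -0.59 in MEP (adjusted p = 0.54). Pimreg rose in LT-HSCs and fell by 0.41, 0.24 and 0.79 in CMP, GMP and MEP. Tns2 and Cd163l1 changed in the same direction in none of the precursors, and Cd163l1 was too low there to be tested.

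**Figure D5:**
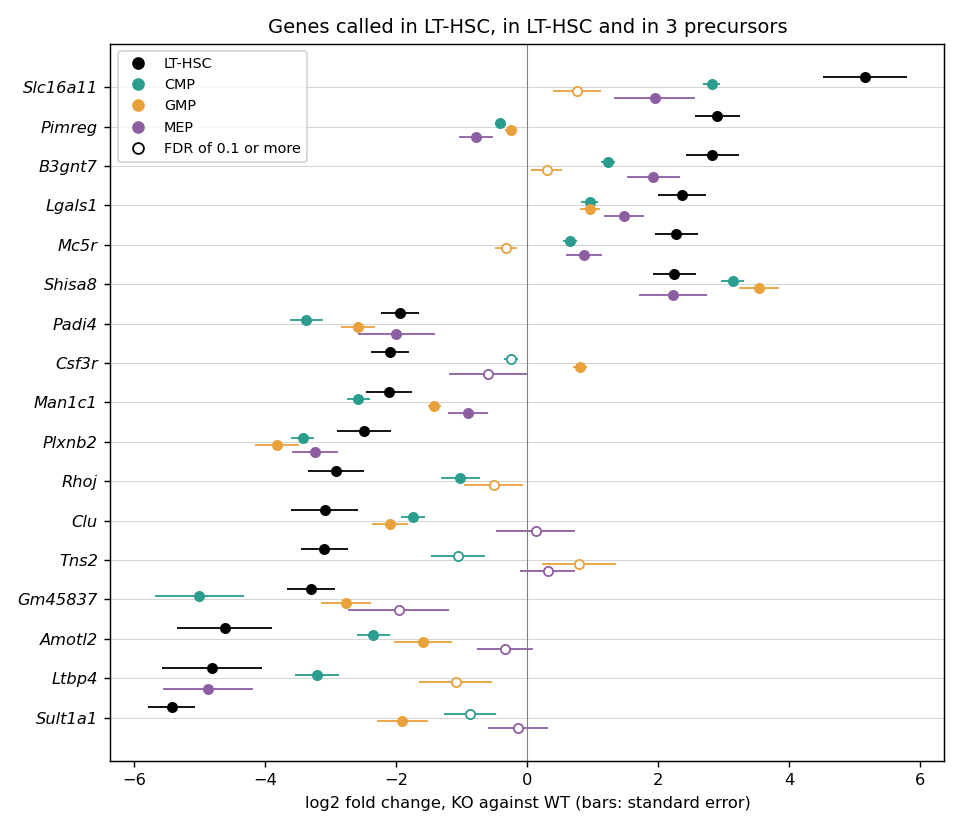
The x axis gives the log2 fold change of KO against WT, with its standard error as a bar, for the called genes other than Cd163l1 in LT-HSC (black), CMP (green), GMP (orange) and MEP (purple), with open points for an FDR of 0.1 or more. Plxnb2, Padi4, Man1c1, Lgals1 and Shisa8 keep 1 side of 0 in all 4 populations, while Pimreg is at 2.90 in LT-HSC and below 0 in the others and Csf3r is at -2.09 in LT-HSC and 0.81 in GMP.

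The difference of the KO effect between LT-HSCs and each precursor was tested with limma, over the 10 libraries of each pair, with a separate variance factor for each population. It was past an FDR of 0.1 for 0 of 23818 genes against CMP (0%), 17 of 23724 against GMP (0.0717%) and 44 of 23563 against MEP (0.187%). Against CMP the smallest limma adjusted p was 0.274, 1576 genes had an unadjusted p under 0.05, and edgeR with a shared spread called 531. These counts depended on single libraries: with WT replicate 1 or KO replicate 2 left out, 0 genes were left against GMP, and without KO replicate 1 or KO replicate 2, 2 genes were left against MEP. Without WT replicate 2 the counts were 1728, 1450 and 2545. Of the called genes, 3 differed from MEP. The difference, LT-HSC less MEP, was -5.25 for Sult1a1 (limma adjusted p = 0.0825), 3.65 for Pimreg (0.0825) and -3.42 for Tns2 (0.0947). For Csf3r the difference from GMP was -2.88 (SE 0.57, limma adjusted p = 0.156).

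The remaining genes of this comparison were chosen after their values were seen. Against MEP the smallest p belonged to Egfl7, a secreted factor of endothelium and stem cells that hosts a microRNA. It was at 109 and 140 CPM in the WT and at 265 and 248 CPM in the KO LT-HSC libraries (log2 fold change 1.04) and fell by 2.64 in MEP (difference 3.69, SE 0.27, limma adjusted p = 0.00108). Tmsb10, an actin-sequestering thymosin, and Fabp5, a fatty acid carrier, had the same shape, with differences of 2.76 and 3.43. Gstt1, a glutathione transferase, was the reverse, with 23.9 and 26.2 against 13.8 and 14.2 CPM in LT-HSCs and a rise of 2.08 in MEP. Against GMP, the smallest p-values belonged to Tmem176b, Fyn and Hmgn3. Tmem176b, a membrane channel of myeloid cells, was at 387 and 402 CPM in the WT and at 372 and 449 CPM in the KO LT-HSC libraries and fell by 2.51 in GMP. Fyn, a Src family kinase, and Hmgn3, a nucleosome-binding protein, likewise stood near 0 in LT-HSCs, at 0.19 and -0.02 on the log2 scale, and fell by 2.39 and 3.28 in GMP. Eng, also past the threshold (limma adjusted p = 0.0636), stood at -0.01 in LT-HSCs and -1.76 in GMP. Vldlr, a lipoprotein receptor, was at 42.8 and 24.4 against 12.4 and 15.7 CPM in LT-HSCs and rose by 2.81 in GMP.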

How the data were processed

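RNA from sorted LT-HSCs was amplified with SMART-Seq v4 and sequenced with reads of 100 bases. Per the labels and the study's methods, the authors quantified reads with kallisto on Ensembl release 84 transcripts (mm10, GRCm38) and tested genes with DESeq2 after tximport. Aligner parameters are not given in the sources used here. The deposited tables give, per transcript, estimated counts and TPM, which the authors' tool corrected for length and depth, with transcript and effective lengths. The authors neither pooled replicates nor summed genes in these tables.

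For each gene the estimated counts of its transcripts were added up and rounded to whole numbers, genes with low counts were removed with filterByExpr, and libraries were scaled with TMM. KO was compared with WT by edgeR 4.0.16 (R 4.3.3), with quasi-likelihood tests and Benjamini-Hochberg adjustment over all genes tested. CPM values are TMM-normalized. Each precursor was fitted alone in the same way, and differences of effects were fitted with limma 3.58.1 (voom, with 1 variance factor for LT-HSC and 1 for the precursor). DESeq2 1.42.0, median-of-ratios factors, no filter, at least 10 counts in each library, a transcript length offset, a replicate block and leaving out each library served as alternatives. LT-HSC libraries held 40804031 to 65930737 estimated counts, and counts of amplified reads are not independent molecules, so floors of 3 counts cover counting error only. The scripts were tested on simulated data. TPM columns were not used for tests.

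The text names Arid1a and Arid1b, every gene at an FDR under 0.1, the 10 genes with the widest gap in each direction above a mean of 20 CPM, and, in each list described, the 2 most abundant members and up to 4 non-overlapping members with the smallest unadjusted p under 0.05. Other names were chosen after their values were seen: the genes at an FDR under 0.25, the marker genes and the genes with differing effects. Oas1a, Epx, Prg2, Prg3, Ngp, Retnlg, Cd177, Gp9, Pde2a and Cdkn1c were also chosen that way, and some of them meet the naming rule too. The libraries, gene lists and markers were chosen with earlier results of these data known, and some lists hold genes that stood out in them. A few members that the naming rule picks are not reported here. Promoters and coordinates were taken from RefSeq and Ensembl annotation of GRCm38. Columns that could not be mapped to a sample numbered 0.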

Additional observations from a re-analysis of the deposited data

Results flagged for a closer look

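These 14 genes had a KO effect in LT-HSCs that differed from that in a precursor population of other mice, by limma's test of the difference at an FDR under 0.1, and all values are log2 differences, LT-HSC less precursor. Against GMP the difference was 2.57 for Tmem176b, 2.60 for Fyn, 3.24 for Hmgn3 and 1.72 for Eng, each of which fell in GMP and stood near 0 in LT-HSCs. It was -4.03 for Vldlr, which rose in GMP. Against MEP the difference was 3.69 for Egfl7, 2.76 for Tmsb10, 3.43 for Fabp5 and 2.52 for Tnfrsf18, each of which fell in MEP. It was 1.75 for Tedc1 and 3.65 for Pimreg, and it was -2.92 for Gstt1, -5.25 for Sult1a1 and -3.42 for Tns2. Library kits differed between LT-HSCs and precursors, and the part of the kit in these differences was not tested.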

How the results depend on the processing

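The 18 genes at an FDR under 0.1 kept their direction under every alternative in which they were tested, and all 18 were called with median-of-ratios factors, without a filter and with DESeq2. With a transcript length offset 15 of the 18 were called, and Amotl2 (-4.13, edgeR adjusted p = 0.286), Plxnb2 (-2.57, 0.122) and Man1c1 (-2.07, 0.122) were not. Requiring 10 counts in each library left 17, since Cd163l1 has no count in KO mice. Without KO replicate 1 the values were -1.74 for Padi4 and -1.85 for Man1c1, and without KO replicate 2 they were -2.12 for Padi4 and -1.94 for Csf3r, none of them called. Counts of calls moved more. At an FDR under 0.1, lower and higher genes numbered 177 and 109 without a filter and 161 and 87 with DESeq2, and 11 rose with at least 10 counts in each library. Leaving out 1 library gave 33 to 935 lower and 17 to 1584 higher genes. At an FDR under 0.25 these were 252 and 144 without a filter, 353 and 155 with DESeq2, and 41 to 2084 and 22 to 2740 with 1 library left out. The cause was not tested. The counts of genes whose groups did not overlap stayed within 1.5 times. Differing effects numbered 531 against CMP, 955 against GMP and 492 against MEP with edgeR and a shared spread, and 0 to 1728, 0 to 1450 and 2 to 2545 with 1 LT-HSC library left out. Signs of list medians changed for 9 of 29 lists without WT replicate 1 and 8 without WT replicate 2.

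Replicate numbers came from the study's table of changed genes, and the libraries share only a number. The deviations of replicates 1 from their group means had a correlation of 0.0973 across 8619 genes. With the replicate block, 78 genes fell and 37 rose at an FDR under 0.1, and 259 and 123 at 0.25. The 18 genes were called with the block too.

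Genes near 0 changed sign. Rbl2 was -0.0039 with median-of-ratios factors, -0.10 with at least 10 counts in each library, -0.093 with the length offset and -0.074 with the replicate block. Jak1 was -0.0011, -0.087, -0.0069 and -0.015 under the same alternatives. Eng was 0.20 with the length offset and 0.011 with DESeq2. With 1 library left out, log2 fold changes ran from -0.027 to 0.42 for Angpt1, -0.29 to 0.16 for Arid1b, -0.49 to 0.34 for Car2, -0.22 to 0.21 for Eng, -0.23 to 0.24 for Jak1, -0.20 to 0.14 for Kit, -10.41 to 0.12 for Pde2a, -0.52 to 0.42 for Rbl2 and -0.038 to 0.61 for Trp53. Pde2a has no count in KO replicate 1, so its fitted value without KO replicate 2 is no bound. With 2 mice a group, the spread between mice limits every call.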

Other observations

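Of the 34 genes at an FDR under 0.25, 8 lie on chromosome 7 (23.5%, against 8.74% of genes tested) and 4 on chromosome 15 (11.8%, against 3.2%). Arid1a itself lies on chromosome 4, which carries 4 of the 34 (11.8%, against 5.85%). These are Csf3r, Padi4, Man1c1 and AI427809, and Man1c1 lies 0.805 Mb from Arid1a. Both groups carried the floxed allele on both copies (f/f), and the strain of the DNA around it was not analysed here.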
